A study of Mus musculus with 12 samples.

Results

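Imprinted genes are transcribed mainly or only from the copy inherited from one parent. The 10 genes described here, Plagl1, Cdkn1c, Grb10, Rasgrf1, Zim1, Peg3, Zdbf2, Ndn, Sgce and Nap1l5, were taken as a named list of imprinted genes with links to growth, all lying away from the Dlk1 locus. They are 10 of the 17097 genes with a symbol on the array, and every one of them was measured. Each gene was read from its brightest probe set, meaning the set of array probes with the highest mean over 12 arrays, and its other probe sets served as a check.

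The cells were dermal fibroblasts of newborn mice, taken from 3 female littermates at 2 days of age, with no transgene or treatment named in the labels. After removal of the tissue under the dermis and digestion with collagenase, cells positive for Pdgfra and CD34 and negative for CD45, CD117, CD31 and EpCam were sorted into 4 populations. Papillary cells, from the upper dermis, were CD26+, Dlk1- and Sca1-. Reticular cells, from the lower dermis, were CD26-, Dlk1+ and Sca1-. A pair of populations named pre-adipogenic in the labels was CD26- and Sca1+, one of them Dlk1+ and the other Dlk1-. They are called Dlk1+ Sca1+ and Dlk1- Sca1+ cells here. Each population of each animal gave 1 array, made from RNA of 4500 cells after 21 cycles of amplification, so there are 3 arrays per population.

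In imprinted clusters, DNA methylation laid down in the egg or the sperm marks one parental copy of a control region, and that mark is kept through cell division by proteins such as ZFP57, ZFP445 and DNMT1. Many imprinted genes act on fetal and early postnatal growth, some as brakes on the cell cycle or on insulin-like growth factor signalling and others as promoters of growth, and several are also known from adipose and muscle precursors. Plagl1, Rasgrf1, Peg3, Zdbf2, Ndn, Sgce and Nap1l5 are known as genes expressed from the paternal copy, and Cdkn1c, Grb10 and Zim1 as genes expressed mainly from the maternal copy outside the brain. These arrays do not tell the parental copies apart.

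Values are log2 RMA expression values, where a difference of 1 is a factor of 2. Differences are given as first population minus second, with the standard error (SE) from limma, a linear model fitted to all genes together. Adjusted p-values are limma's after Benjamini-Hochberg adjustment over 17097 genes, and a difference is called where it is under 0.05. Arrays of the same number come from the same animal. The model that also fits the animal as a block is quoted where it changed a call of the 10 genes, the F-test of a named neighbour, or a count by more than 1.5 times. The brightness of one probe set cannot be set against that of another, so levels are compared only within a gene.

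The array medians lay between 6.21 and 6.34. Transcripts of the sorting markers were compared with the gates: Dpp4, the gene of CD26, averaged 10.61 in papillary cells and 6.26 to 6.37 in the others, and Dlk1 averaged 12.97 and 12.86 in the Dlk1+ populations, reticular and Sca1+, 11.39 in Dlk1- Sca1+ and 9.97 in papillary cells. Ly6a, which encodes Sca1, was not analysed here. The mean of 9 fibroblast markers was 11.06 to 11.32 on every array, and that of 6 immune markers 5.16 to 5.43. Skeletal muscle markers moved with the populations: the mean of 8 such genes was 5.75 to 5.82 in papillary, 6.78 to 7.18 in reticular, 6.34 to 6.53 in Dlk1+ Sca1+ and 5.86 to 5.97 in Dlk1- Sca1+ cells. The mean of 5 mural cell markers was 6.03 to 6.10, 7.38 to 8.56, 6.94 to 8.04 and 6.64 to 6.86 in that order of populations, that of 9 endothelial markers 5.51 to 5.63, 6 to 6.26, 6.01 to 6.70 and 6.13 to 6.46, and that of 4 adipocyte markers 5.93 to 6.42, 7.58 to 7.71, 9.26 to 9.5 and 9.73 to 9.93. For 5 melanocyte and Schwann cell markers the means were 6.22 to 6.31, 6.46 to 6.63, 6.65 to 7.40 and 6.62 to 8.10. One array stood apart: the mean of 7 keratinocyte markers was 9.64 in the Dlk1- Sca1+ cells of animal 1 and 6.37 to 7.73 on the other 11 arrays. The part of any of these markers in the results below was not tested, and values without that array are given where a call depended on it.

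RefSeq gives a promoter window, from 250 bases before to 50 bases after a transcript start, for 8 of the 10 genes, with 10 windows in all (GRCm38.p6). Cdkn1c and Sgce had no entry in that table. The windows were searched on both strands for TGCCGC, the motif bound by ZFP57 when methylated, for GGGGCCCC, the core of the PLAGL1 motif (which reads the same on both strands), and for the motif of YY1, which can share bases with the first. Of these, TGCCGC was present in 5 of the 10 windows and in 11.6% of all 32851 windows, GGGGCCCC in 2 and in 1.08% of all, and the YY1 motif in 0 and in 1.36% of all. The windows of 5 genes are shown because their genes carry the patterns described below: Nap1l5 and Zdbf2 lay at opposite ends of the papillary comparison, Zim1 and Peg3 are neighbours of which the first had called differences and the second had none in this model, and Plagl1 encodes the factor whose motif was searched. Capitals mark the motif matches, sequences run 5′ to 3′ along the gene's strand, and positions are counted from the start as the first base, with negative numbers before it.
Nap1l5, chr6:58907077-58907376, minus strand: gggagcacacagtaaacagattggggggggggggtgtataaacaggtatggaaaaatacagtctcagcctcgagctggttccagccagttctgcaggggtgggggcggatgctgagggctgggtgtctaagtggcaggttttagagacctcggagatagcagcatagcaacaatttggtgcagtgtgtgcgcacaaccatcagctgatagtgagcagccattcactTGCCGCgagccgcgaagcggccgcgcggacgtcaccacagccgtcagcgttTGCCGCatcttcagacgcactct
Zdbf2, chr1:63200108-63200407, plus strand: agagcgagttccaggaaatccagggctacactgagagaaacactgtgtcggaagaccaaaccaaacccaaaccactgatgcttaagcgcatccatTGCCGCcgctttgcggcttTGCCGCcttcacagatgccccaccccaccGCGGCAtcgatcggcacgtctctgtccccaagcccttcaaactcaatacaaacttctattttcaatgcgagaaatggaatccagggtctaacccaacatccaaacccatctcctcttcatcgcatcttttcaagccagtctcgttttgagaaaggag
Zim1, chr7:6696383-6696682, minus strand: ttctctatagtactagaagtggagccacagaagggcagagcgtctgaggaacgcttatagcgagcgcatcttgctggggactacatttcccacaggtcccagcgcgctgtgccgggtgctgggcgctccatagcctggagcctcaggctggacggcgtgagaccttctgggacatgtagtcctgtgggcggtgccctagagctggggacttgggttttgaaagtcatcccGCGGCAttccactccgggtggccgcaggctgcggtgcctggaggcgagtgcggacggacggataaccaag
Peg3, chr7:6730370-6730669, minus strand: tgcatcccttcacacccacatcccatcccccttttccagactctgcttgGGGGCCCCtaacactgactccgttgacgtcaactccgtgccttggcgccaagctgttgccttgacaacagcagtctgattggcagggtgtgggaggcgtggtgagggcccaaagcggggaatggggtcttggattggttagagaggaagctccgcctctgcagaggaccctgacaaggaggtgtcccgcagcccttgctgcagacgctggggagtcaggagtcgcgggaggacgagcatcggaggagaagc
Plagl1, chr10:13090582-13090881, plus strand: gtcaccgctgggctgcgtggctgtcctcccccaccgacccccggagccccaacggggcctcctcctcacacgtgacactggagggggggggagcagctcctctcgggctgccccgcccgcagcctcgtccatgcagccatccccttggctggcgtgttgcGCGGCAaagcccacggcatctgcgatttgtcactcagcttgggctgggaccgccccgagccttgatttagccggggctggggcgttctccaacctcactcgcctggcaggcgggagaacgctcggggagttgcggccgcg
In the Nap1l5 window TGCCGC began at -24 and again at 28, one on each side of the start. The Zdbf2 window, that of the more upstream of its 2 starts, held it at -155 and -136 and its reverse complement at -107. Zim1 and Plagl1 each held 1 reverse complement, at -20 and -90. Peg3 held no TGCCGC in this window and 1 GGGGCCCC at -201. Among the windows not shown, the farther upstream of the 2 Grb10 starts had a TGCCGC on the reverse strand at 25, and Rasgrf1 had a GGGGCCCC at -58. CpG dinucleotides numbered 17 in the Nap1l5, 15 in the shown Zdbf2, 20 in the Zim1, 13 in the Peg3 and 26 in the Plagl1 window, against a median of 7 over all windows with quartiles of 3 and 20. These are matches of letters and no measurement of binding or methylation.

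Most of the 10 genes differed between the populations. In a moderated F-test over the 4 populations, 9 passed, all but Peg3, against 35.7% of all genes tested (9 and 43.2% with the animal as a block). The genes were chosen with earlier results of these data known, so this excess is no test of imprinted genes as a group. The patterns of the 10 genes were not alike. Zdbf2, Zim1 and Cdkn1c were lowest in papillary cells, by more than a factor of 2 against both Dlk1+ populations, Nap1l5 was highest there by more than a factor of 2 against each of the others, Plagl1, Ndn and Sgce were lowest in Dlk1- Sca1+ cells, and Rasgrf1 was highest in Dlk1- Sca1+ cells. The mean was highest in reticular cells for 5 genes, in Dlk1+ Sca1+ cells for 2, in Dlk1- Sca1+ cells for 2 and in papillary cells for 1. It was lowest in papillary cells for 5, in Dlk1- Sca1+ cells for 4, in reticular cells for 1 and in Dlk1+ Sca1+ cells for 0. Many of these ranks rest on differences that were not called. The highest mean was called apart from the next only for Nap1l5 and Rasgrf1. The lowest was not called apart from the next for Peg3, Grb10, Ndn, Rasgrf1 and Nap1l5 (limma adjusted p = 0.955, 0.419, 0.446, 0.746 and 0.0739). In sorted bulk samples such as these, fewer cells that express a gene and less RNA of it per cell cannot be told apart.

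**Figure D1:**
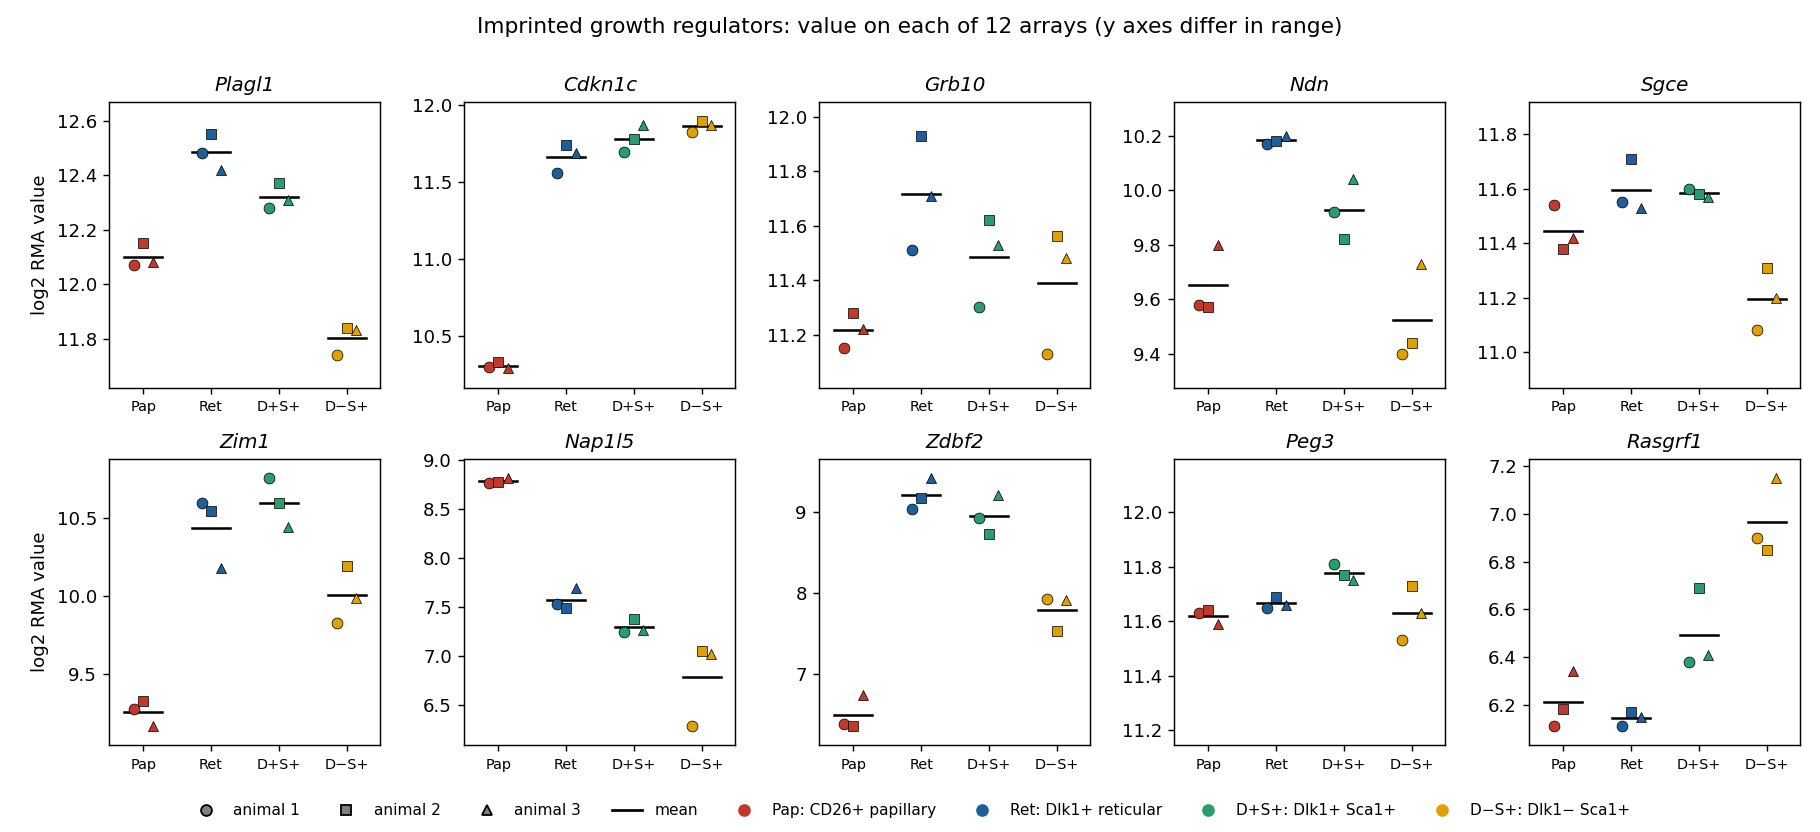
Each panel shows the log2 RMA value of 1 gene (vertical axis, range differing between panels) on 12 arrays, by sorted population, with the shape of the point giving the animal and the bar the mean of 3 arrays. Papillary cells sit apart and low for Cdkn1c, Zim1 and Zdbf2 and apart and high for Nap1l5, while Peg3 spans population means only 0.157 apart.

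Plagl1 encodes a zinc finger transcription factor that can arrest the cell cycle and binds near other imprinted genes. Its values in animals 1, 2 and 3 were 12.07, 12.15 and 12.08 in papillary cells and 12.48, 12.55 and 12.42 in reticular cells. In Dlk1+ Sca1+ cells they were 12.28, 12.37 and 12.31, and in Dlk1- Sca1+ cells 11.74, 11.84 and 11.83. The 4 populations did not overlap, with reticular cells highest and Dlk1- Sca1+ cells lowest in each animal. Dlk1- Sca1+ cells were below reticular cells by -0.68 ± 0.07 (SE, n = 3; adjusted p = 1.53e-05), a 1.6-fold difference, and below Dlk1+ Sca1+ cells by -0.52 (adjusted p = 0.000386). Papillary minus reticular was -0.38 (adjusted p = 0.000776).

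Papillary cells lay between the others in Plagl1, and those 2 smaller differences were less firm. Papillary minus Dlk1- Sca1+ was 0.30 (adjusted p = 0.00503), and leaving out animal 1, 2 or 3 raised the adjusted p to 0.0507, 0.0606 and 0.0589. Papillary minus Dlk1+ Sca1+ was -0.22 (adjusted p = 0.0269) and was lost in 7 of 15 fits that left out an animal or a single array. Without animals 1, 2 and 3 in turn its adjusted p was 0.103, 0.143 and 0.193. Without 1 array it was 0.0882 (papillary, animal 1), 0.0771 (papillary, animal 3), 0.1 (Dlk1+ Sca1+, animal 2) and 0.0634 (Dlk1+ Sca1+, animal 3). The remaining difference, Dlk1+ Sca1+ minus reticular, was -0.16 and not called (adjusted p = 0.201). A second Plagl1 probe set, 1450533_PM_a_at, gave larger differences in the same directions in all 6 comparisons: papillary minus reticular was -0.99, Dlk1- Sca1+ minus reticular -1.49, and Dlk1+ Sca1+ minus reticular -0.35 (adjusted p = 0.0356), and all 6 were called.

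Cdkn1c encodes p57, an inhibitor of cyclin-dependent kinases that holds cells out of the cycle. The values were 10.30, 10.33 and 10.29 in papillary cells against 11.56, 11.74 and 11.69 in reticular cells. Dlk1+ Sca1+ cells read 11.70, 11.78 and 11.87 and Dlk1- Sca1+ cells 11.83, 11.90 and 11.87. Papillary cells were thus more than 1 log2 unit below every other array, and lay close together. The difference from reticular cells was -1.36 ± 0.07 (SE, n = 3; adjusted p = 2.22e-08), or 2.56-fold, that from Dlk1+ Sca1+ cells -1.48, or 2.78-fold (adjusted p = 6.99e-09), and that from Dlk1- Sca1+ cells -1.56, or 2.95-fold (adjusted p = 4.38e-09). None of the 15 leave-out fits lost any of these 3 calls.

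Among the other 3 populations Cdkn1c varied little. Dlk1- Sca1+ cells lay above reticular cells in all 3 animals by 0.20 (adjusted p = 0.0747), and this passed with the animal as a block (adjusted p = 0.0315). Dlk1+ Sca1+ minus reticular was 0.12 (95% interval -0.04 to 0.28) and Dlk1- Sca1+ minus Dlk1+ Sca1+ 0.08 (-0.07 to 0.24), neither of them called.

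Grb10 encodes an adaptor protein that binds activated insulin and IGF1 receptors and dampens their signal. Papillary cells read 11.15, 11.28 and 11.22 and reticular cells 11.51, 11.93 and 11.71. The values were 11.30, 11.62 and 11.53 in Dlk1+ Sca1+ cells and 11.13, 11.56 and 11.48 in Dlk1- Sca1+ cells. Animal 1 was lowest in each of the 4 populations, and animal 2 highest. All 3 papillary arrays lay below all 3 reticular arrays, and this was the 1 difference called for Grb10: -0.50 ± 0.13 (SE, n = 3; adjusted p = 0.0111), or 1.41-fold. It was lost without animal 2 (-0.43, adjusted p = 0.0818), without animal 3 (-0.51, adjusted p = 0.12) and without the reticular array of animal 2 (-0.39, adjusted p = 0.0566).

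With the animal as a block, Grb10 was also called lower in papillary cells against Dlk1+ Sca1+ cells (-0.27; adjusted p = 0.167 without the block and 0.0138 with it) and lower in Dlk1- Sca1+ than in reticular cells (-0.33; 0.114 without and 0.00698 with it). Its 3 probe sets ran in the same direction in all 6 comparisons. The papillary minus reticular difference was -0.51 (adjusted p = 0.0152) for 1425457_PM_a_at and -0.63 (adjusted p = 0.00099) for 1425458_PM_a_at.

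Rasgrf1 encodes an exchange factor that loads Ras with GTP, and its imprinted paternal copy is known to promote growth after birth. Its brightest probe set was still a dim one. The values were 6.11, 6.18 and 6.34 in papillary cells and 6.11, 6.17 and 6.15 in reticular cells. They were 6.38, 6.69 and 6.41 in Dlk1+ Sca1+ cells and 6.90, 6.85 and 7.15 in Dlk1- Sca1+ cells, each of these arrays lying above every papillary and reticular array. Dlk1- Sca1+ minus reticular was 0.82 ± 0.10 (SE, n = 3; adjusted p = 0.000109), or 1.77-fold, and papillary minus Dlk1- Sca1+ was -0.76 (adjusted p = 0.000101). Both stayed called in all 15 leave-out fits.

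The step between the Sca1+ populations in Rasgrf1, 0.47 for Dlk1- Sca1+ minus Dlk1+ Sca1+ (adjusted p = 0.0133), rested on few arrays. Its adjusted p was 0.124 without animal 1, 0.243 without animal 3, 0.0624 and 0.0607 without the Dlk1+ Sca1+ array of animal 1 or 3, and 0.06 without the Dlk1- Sca1+ array of animal 3. Dlk1+ Sca1+ minus reticular was 0.35 (adjusted p = 0.0593, and 0.0374 with the block), and papillary minus Dlk1+ Sca1+ was -0.28 (0.062, and 0.0416 with the block). The other 2 probe sets of Rasgrf1 disagreed with each other. For 1422600_PM_at the differences were larger, at 1.87 for Dlk1- Sca1+ minus reticular, 1.06 for Dlk1- Sca1+ minus Dlk1+ Sca1+ and 0.81 for Dlk1+ Sca1+ minus reticular, all called. The dimmest, 1424734_PM_at, was called in 0 of 6 comparisons, and its Dlk1- Sca1+ minus reticular difference was 0.05 (adjusted p = 0.82).

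Zim1 encodes a zinc finger protein and lies beside Peg3. Papillary cells read 9.28, 9.33 and 9.17, below every other array. The values were 10.59, 10.54 and 10.18 in reticular cells, 10.75, 10.59 and 10.44 in Dlk1+ Sca1+ cells and 9.83, 10.19 and 9.99 in Dlk1- Sca1+ cells. Papillary minus reticular was -1.18 ± 0.12 (SE, n = 3; adjusted p = 1.06e-05), or 2.26-fold, papillary minus Dlk1+ Sca1+ -1.33 (2.77e-06), or 2.52-fold, and papillary minus Dlk1- Sca1+ -0.74 (adjusted p = 0.000524). These 3 calls were lost in 0 of 15 leave-out fits.

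Dlk1- Sca1+ cells were lower in Zim1 than both Dlk1+ populations, by a smaller margin. Dlk1- Sca1+ minus Dlk1+ Sca1+ was -0.59 (adjusted p = 0.0105), with adjusted p = 0.166 without animal 1, 0.0611 without animal 2 and 0.0514 without the Dlk1+ Sca1+ array of animal 1. Dlk1- Sca1+ minus reticular was -0.43 (adjusted p = 0.0283), although the arrays overlapped. That call was lost without animal 1 (-0.27, adjusted p = 0.267) or animal 2 (0.113), without the reticular array of animal 1 (0.103) or 2 (0.105), and without the Dlk1- Sca1+ array of animal 1 (0.112) or 3 (0.0762).

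Peg3 encodes a large zinc finger protein known to affect fetal growth and maternal behaviour. The values were 11.63, 11.64 and 11.59 in papillary, 11.65, 11.69 and 11.66 in reticular, 11.81, 11.77 and 11.75 in Dlk1+ Sca1+ and 11.53, 11.73 and 11.63 in Dlk1- Sca1+ cells. The 4 means lay within 0.157 of each other, and no comparison was called. The largest difference was papillary minus Dlk1+ Sca1+, at -0.16 with a 95% interval of -0.31 to -0.01 and an adjusted p of 0.118. It passed after repeated quantile normalization (-0.18, adjusted p = 0.0448) and with limma-trend and robust estimation together (adjusted p = 0.0269). For papillary minus reticular cells the interval was -0.20 to 0.10, so a difference in Peg3 as large as that of Zim1, its neighbour, lay outside it. The second Peg3 probe set, 1417355_PM_at, was called in 0 of 6 comparisons as well.

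Zdbf2 encodes a protein with a DBF-type zinc finger. Of the 10 genes it spanned the widest range of means, 2.72. It read 6.39, 6.36 and 6.74 in papillary cells and 9.04, 9.18 and 9.42 in reticular cells. The values were 8.93, 8.73 and 9.21 in Dlk1+ Sca1+ cells and 7.93, 7.53 and 7.92 in Dlk1- Sca1+ cells. The arrays fell into 3 levels that did not overlap: papillary cells lowest, Dlk1- Sca1+ cells in the middle and the Dlk1+ populations highest. Papillary minus reticular was -2.72 ± 0.15 (SE, n = 3; adjusted p = 3.78e-08), a 6.57-fold difference, and papillary minus Dlk1+ Sca1+ was -2.46, or 5.5-fold (adjusted p = 6.3e-08).

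The middle level of Zdbf2 differed from both sides. Papillary minus Dlk1- Sca1+ was -1.3, or 2.46-fold (adjusted p = 2.8e-05), Dlk1- Sca1+ minus reticular -1.42, or 2.68-fold (3.14e-05), and Dlk1- Sca1+ minus Dlk1+ Sca1+ -1.16, or 2.24-fold (0.000414). Every one of the 15 leave-out fits kept these 5 calls. The 2 Dlk1+ populations overlapped, with a difference of -0.26 (95% interval -0.59 to 0.08; adjusted p = 0.452).

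Ndn encodes necdin, a MAGE family protein that binds E2F1 and restrains proliferation, and is known from adipocyte and neuronal precursors. The values were 9.58, 9.57 and 9.80 in papillary cells and 10.17, 10.18 and 10.20 in reticular cells. Dlk1+ Sca1+ cells read 9.92, 9.82 and 10.04 and Dlk1- Sca1+ cells 9.40, 9.44 and 9.73. Reticular arrays lay above all others, and within each animal the order was reticular, Dlk1+ Sca1+, papillary and Dlk1- Sca1+. Papillary minus reticular was -0.53 ± 0.10 (SE, n = 3; adjusted p = 0.00119) and Dlk1- Sca1+ minus reticular was -0.66, or 1.58-fold (adjusted p = 0.000452). Both were called in all 15 leave-out fits.

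The Dlk1- Sca1+ minus Dlk1+ Sca1+ difference in Ndn was -0.40 (adjusted p = 0.026). It was lost without animal 1 (adjusted p = 0.247) or 2 (0.165), without the Dlk1+ Sca1+ array of animal 1 (0.0723) or 3 (0.112) and without the Dlk1- Sca1+ array of animal 1 (0.11) or 2 (0.0867). With the animal as a block, Ndn was also called lower in papillary cells against Dlk1+ Sca1+ cells (-0.28; adjusted p = 0.0572 without and 0.00994 with it) and lower in Dlk1+ Sca1+ than in reticular cells (-0.26; 0.165 without and 0.0361 with it). Papillary minus Dlk1- Sca1+ was 0.13 and was not called in either model.

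Sgce encodes epsilon-sarcoglycan, a membrane protein of the complex that links dystrophin to the matrix. Its values were 11.54, 11.38 and 11.42 in papillary, 11.55, 11.71 and 11.53 in reticular, 11.60, 11.58 and 11.57 in Dlk1+ Sca1+ and 11.08, 11.31 and 11.20 in Dlk1- Sca1+ cells. The Dlk1- Sca1+ arrays lay below all 9 others, and the rest spanned 11.38 to 11.71. Dlk1- Sca1+ minus reticular was -0.40 ± 0.08 (SE, n = 3; adjusted p = 0.00383), or 1.32-fold, and was lost only without animal 3 (adjusted p = 0.0608) among the 15 leave-out fits. Dlk1- Sca1+ minus Dlk1+ Sca1+ was -0.39 (adjusted p = 0.0103) and was lost without animal 1 (0.12), animal 3 (0.162) or the Dlk1- Sca1+ array of animal 1 (0.0515).

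The third called Sgce difference, 0.25 for papillary minus Dlk1- Sca1+ (adjusted p = 0.0375), was lost in 8 of the 15 fits. These were the fits without animal 1 (0.15, adjusted p = 0.366) or 3 (0.194), without the papillary array of animal 1 (0.15) or 3 (0.0673), without the Dlk1+ Sca1+ array of animal 2 (0.0511) or 3 (0.0519), and without the Dlk1- Sca1+ array of animal 1 (0.159) or 3 (0.0853). A second, dim probe set of Sgce, 1443518_PM_at, gave another picture, with papillary cells highest: papillary minus reticular was 0.67 (adjusted p = 0.000418), papillary minus Dlk1+ Sca1+ 0.57 (0.0013) and papillary minus Dlk1- Sca1+ 0.68 (0.000357). It showed -0.01 for Dlk1- Sca1+ minus reticular (adjusted p = 0.968). The direction of Sgce in papillary against the Dlk1+ populations therefore depended on the probe set, while papillary cells were above Dlk1- Sca1+ cells in both.

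Plagl1, Ndn and Sgce shared an order of means, reticular, then Dlk1+ Sca1+, then papillary, then Dlk1- Sca1+. Not every step of it was called: none was for Ndn, only the last for Sgce, and all but the first for Plagl1. The second Sgce probe set, with papillary cells highest, did not share the order. The skeletal muscle markers were also highest in reticular and next in Dlk1+ Sca1+ cells. Against reticular cells 7 of 8 were called lower in papillary (13.6% of all genes) and 7 of 8 in Dlk1- Sca1+ cells (8.8%). The part of these markers in the values of Plagl1, Ndn and Sgce was not tested. Papillary cells, where Cdkn1c, Zim1 and Zdbf2 were lowest, also had the lowest endothelial, mural, skeletal muscle, adipocyte, and melanocyte and Schwann cell marker means. The adipocyte marker mean was highest in Dlk1- Sca1+ cells, as Rasgrf1 was. The part of these markers was not tested either.

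Nap1l5, a retrotransposed gene of the nucleosome assembly protein family, was the 1 gene of the 10 that was highest in papillary cells. It read 8.76, 8.77 and 8.81 there and 7.53, 7.49 and 7.69 in reticular cells. The values were 7.25, 7.38 and 7.27 in Dlk1+ Sca1+ cells and 6.29, 7.05 and 7.02 in Dlk1- Sca1+ cells, the array of animal 1 lying well below the other two. No 2 populations overlapped. Papillary minus reticular was 1.21 ± 0.16 (SE, n = 3; adjusted p = 6.65e-05), or 2.31-fold, papillary minus Dlk1+ Sca1+ 1.48, or 2.79-fold (9.46e-06), and papillary minus Dlk1- Sca1+ 1.99, or 3.98-fold (6.23e-07).

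Among the other populations Nap1l5 was lower in Dlk1- Sca1+ than in reticular cells, by -0.78 (adjusted p = 0.00364). The low array of this gene is the one with the high keratinocyte markers. Without it the papillary minus Dlk1- Sca1+ difference was 1.75 and the Dlk1- Sca1+ minus reticular difference was -0.54, both still called, and Dlk1+ Sca1+ minus reticular, -0.27, changed from an adjusted p of 0.432 to 0.0486. Dlk1- Sca1+ minus Dlk1+ Sca1+ was -0.51 (adjusted p = 0.0739, and 0.0415 with the block). Calls for Nap1l5 were lost in 0 of 15 leave-out fits.

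**Figure D2:**
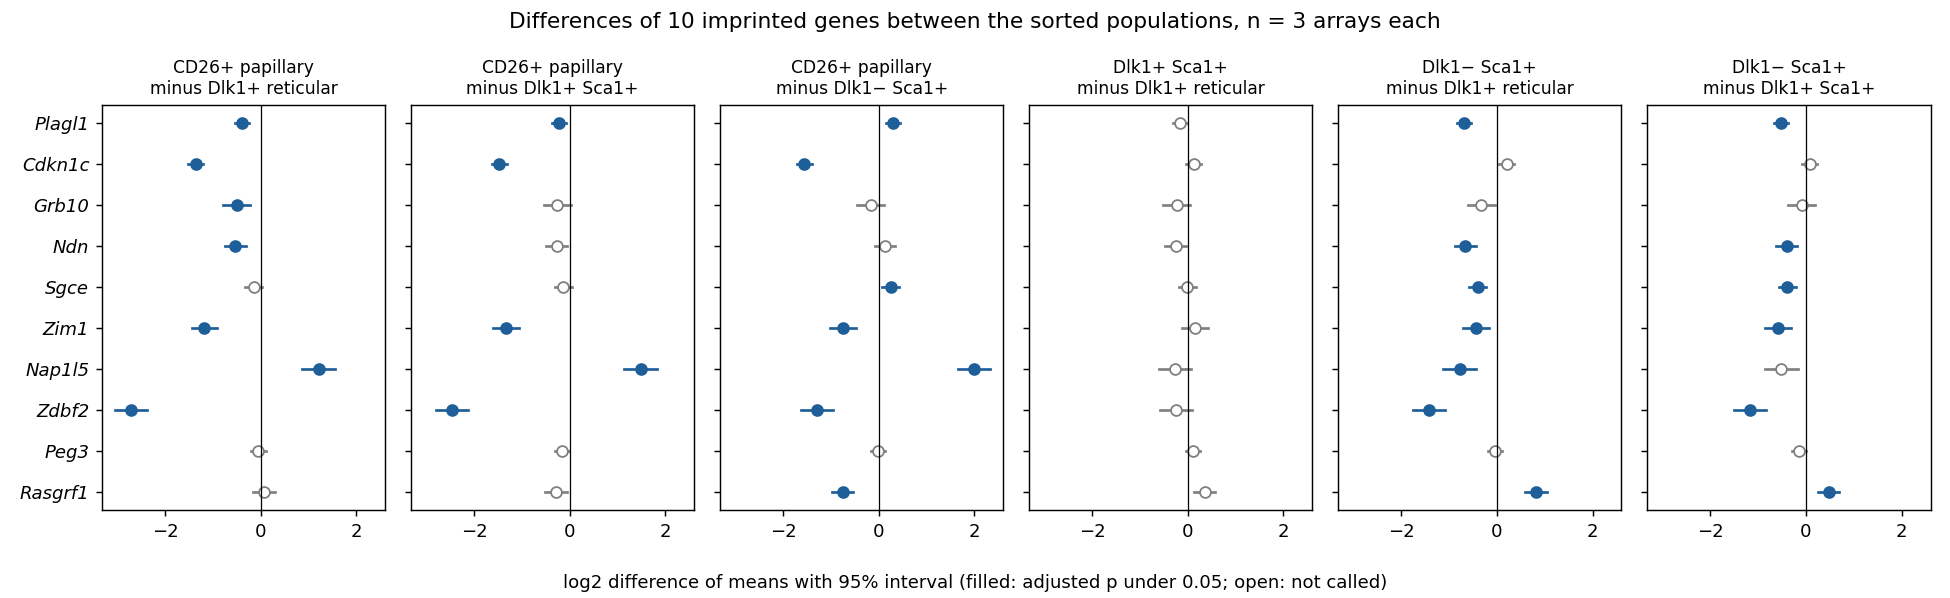
Each panel shows 1 comparison of 2 populations, with the log2 difference of means (first minus second) on the horizontal axis and the 95% interval from limma, n = 3 arrays each; filled points have an adjusted p under 0.05. Zdbf2, Cdkn1c and Zim1 lie far to the left and Nap1l5 to the right in the papillary panels, and the panel of Dlk1+ Sca1+ minus reticular has no filled point.

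Counted by comparison, the 10 genes were called more often than genes at large in 5 of the 6 comparisons, which share arrays. The 10 genes were chosen with earlier results of these data known. These counts therefore describe the chosen genes and do not test whether imprinted genes differ more than others. In papillary against reticular cells 7 were called, where 27.5% of all genes were. Of these 1 was higher (13.9% of all genes) and 6 were lower (13.6%). In papillary against Dlk1+ Sca1+ cells 5 were called (28% of all genes), 1 higher (14.1%) and 4 lower (13.9%). With the animal as a block 8 were called there, where 33.8% of all genes were. In papillary against Dlk1- Sca1+ cells 7 were called (26.4% of all genes), 3 of them higher (Nap1l5, Plagl1 and Sgce; 13.1%) and 4 lower (13.3%).

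Dlk1- Sca1+ cells differed from both Dlk1+ populations in most of the genes. Against reticular cells 7 of the 10 were called, where 18.2% of all genes were, 1 of them higher (Rasgrf1; 9.36% of all genes) and 6 lower (8.8%). Against Dlk1+ Sca1+ cells 6 were called (7.36% of all genes), 1 higher (Rasgrf1 again; 3.23%) and 5 lower (4.13%). Without animal 1 that count was 2 (3.72% of all genes), and without the Dlk1+ Sca1+ array of animal 1 it was 3 (5.33%). The Dlk1+ populations themselves, reticular and Sca1+, gave 0 calls with limma, where 8.43% of all genes were called, 4.06% higher and 4.37% lower in Dlk1+ Sca1+ cells. There 3 of the 10 had an unadjusted p under 0.05 (18.8% of all genes), limma-trend with robust estimation called 1 (Plagl1; 9.18% of all genes), and the block called 2 (Ndn, lower, and Rasgrf1, higher; 12.5% of all genes). The counts from those models lie near the shares of genes at large. With dim genes left out, 15.8% of the genes kept were called between the Dlk1+ populations. For Dlk1- Sca1+ cells that share was 33.1% against reticular and 15.1% against Dlk1+ Sca1+ cells. Over all genes the block called 33.7%, 32.1%, 24% and 11.1% in papillary against reticular, papillary against Dlk1- Sca1+, Dlk1- Sca1+ against reticular and Dlk1- Sca1+ against Dlk1+ Sca1+ cells, the shares to hold beside the blocked counts of gene lists given further on.

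A coarser count took a gene as apart where all 3 arrays of one population lay above all 3 of the other. In papillary cells 8 of the 10 were apart from reticular cells (37.6% of all genes), 10 from Dlk1+ Sca1+ cells (40.2%) and 7 from Dlk1- Sca1+ cells (37.9%). Dlk1- Sca1+ cells were apart from reticular cells in 7 (29.1% of all genes) and from Dlk1+ Sca1+ cells in 8 (21.9%), and the Dlk1+ populations were apart from each other in 5 (21.6%).

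The median absolute difference of the 10 genes was 0.52 in papillary against reticular cells, where the median over all genes was 0.14. It was 0.55 in Dlk1- Sca1+ against reticular cells (0.12 over all genes) and 0.44 in Dlk1- Sca1+ against Dlk1+ Sca1+ cells (0.09). In Dlk1+ Sca1+ against reticular cells it was 0.20 (0.09 over all genes). Of 60 pairs of a gene and a comparison, 32 were called, and in 31 of these the 3 arrays of one population all lay above the 3 of the other.

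**Figure D3:**
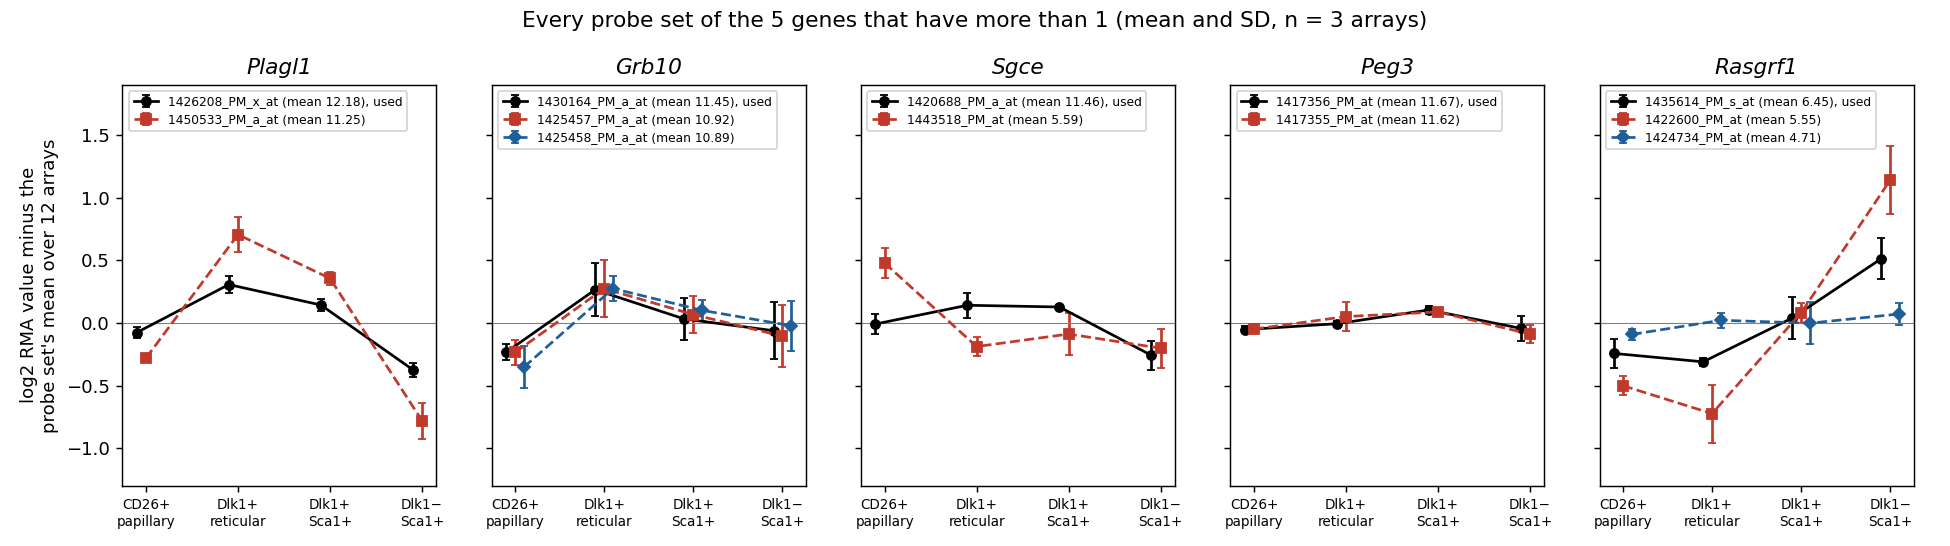
For each of the 5 genes with more than 1 probe set, the log2 RMA value minus that probe set's own mean over 12 arrays (vertical axis) is drawn by population, as mean and SD of 3 arrays; the solid black line is the probe set used. The lines run together for Grb10 and Peg3, and for Plagl1 they share an order, with larger differences in the second probe set. Papillary cells are high for the second Sgce probe set, and 1 Rasgrf1 probe set stays near 0.

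Because imprinted genes sit in clusters, the annotated neighbours were read beside them: 34 of 41 listed neighbours were measured and 17 passed the F-test, which 35.7% of all genes passed. Nap1l5 lies inside Herc3 in the RefSeq annotation, and Herc3, which encodes a HECT-type ubiquitin ligase, was high in the same population. The mean of Herc3 was 6.50 in papillary cells, and 5.09 in reticular, 4.98 in Dlk1+ Sca1+ and at its lowest, 4.79, in Dlk1- Sca1+ cells, and its papillary minus reticular difference was 1.41 (adjusted p = 0.00254). Herc6, which lies next to Herc3, had an adjusted F-test p of 0.0503, and 0.0295 with the block. It was called in papillary minus Dlk1- Sca1+ (0.29, adjusted p = 0.0379) and in Dlk1- Sca1+ minus reticular (-0.33, adjusted p = 0.0265). Whether a probe set of either gene reads the stretch shared by Nap1l5 and Herc3 was not tested.

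Beside Zdbf2, Adam23, a membrane adhesion protein, had means of 6.43, 8.94, 10.03 and 8.59 in papillary, reticular, Dlk1+ Sca1+ and Dlk1- Sca1+ cells. Like Zdbf2 it was lower in papillary cells than in all others (papillary minus reticular -2.51, adjusted p = 3.35e-07), but unlike Zdbf2 it was called higher in Dlk1+ Sca1+ than in reticular cells (1.09, adjusted p = 0.00198). Its neighbours Gpr1 and Eef1b2 did not pass the F-test.

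In the Cdkn1c cluster 4 of 9 neighbours passed. Kcnq1ot1, the long noncoding RNA that silences the cluster on the paternal copy, was lower in papillary than in reticular cells by -0.77 (adjusted p = 1.01e-06), and Tssc4 by -0.65 (adjusted p = 0.000148). Osbpl5 was higher in papillary cells by 0.32 (adjusted p = 0.0486), and Cd81 exceeded its Dlk1- Sca1+ level there by 0.24 (adjusted p = 0.0128). Phlda2 and Slc22a18, which like Cdkn1c are known as maternally expressed, did not pass, and neither did Kcnq1, Nap1l4 and Ascl2.

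Among the neighbours of Ndn, Magel2, a MAGE gene of the same paternal cluster, was at 7.92 in reticular cells and at 6.51, 6.88 and 6.52 in papillary, Dlk1+ Sca1+ and Dlk1- Sca1+ cells. Papillary minus reticular was -1.41 for Magel2 (adjusted p = 3.7e-05) and Dlk1+ Sca1+ minus reticular was -1.03 (adjusted p = 0.00203). Atp10a ran the other way, with Dlk1- Sca1+ minus reticular at 1.25 (adjusted p = 7.29e-06). Snrpn had an adjusted F-test p of 0.0527, and 0.00465 with the block, and its papillary minus Dlk1- Sca1+ difference was called (-0.56, adjusted p = 0.0171). Ube3a, Mkrn3 and Peg12 did not pass the F-test.

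Beside Sgce, Ppp1r9a, which encodes an actin-binding protein, had its lowest mean in the same population as Sgce. Its differences from the Dlk1+ populations were larger: Dlk1- Sca1+ minus reticular was -1.71 (adjusted p = 1.2e-06) and Dlk1- Sca1+ minus Dlk1+ Sca1+ -1.05 (adjusted p = 0.000197). Ppp1r9a was also lower in papillary than in reticular cells (-1.52, adjusted p = 1.23e-06), where Sgce was not called. Papillary minus Dlk1- Sca1+ was 0.19 for Ppp1r9a and not called (adjusted p = 0.345), where Sgce was called. Pon2 and Pon3 ran otherwise: Pon3 was higher in papillary than in reticular cells by 0.68 (adjusted p = 0.00129). Pon2 was lower in Dlk1+ Sca1+ than in Dlk1- Sca1+ cells, which exceeded it by 1.07 (adjusted p = 0.0118). Papillary cells exceeded Dlk1+ Sca1+ cells in Pon2 by 1.04 (adjusted p = 0.0038) and were not called against Dlk1- Sca1+ cells (-0.03, adjusted p = 0.96). Its Dlk1+ Sca1+ arrays read 5.86, 5.75 and 4.77. Dlk1- Sca1+ minus reticular was not called for Pon2 (adjusted p = 0.0604). Casd1 passed the F-test with the block alone (adjusted p = 0.162 without and 0.0388 with it), and Calcr in neither model.

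The cluster of Plagl1 held Phactr2, which was lower than in reticular cells by -1.33 in papillary (adjusted p = 6.88e-05) and by -1.29 in Dlk1- Sca1+ cells (adjusted p = 0.00019), and Sf3b5, which was higher in papillary than in reticular cells by 0.51 (adjusted p = 8.38e-05). Ltv1 did not pass. Next to Grb10, Ddc was lower in papillary than in reticular cells by -0.83 (adjusted p = 0.00118) at a dim level, and Cobl did not pass. Near Peg3, Usp29 was lower than in Dlk1+ Sca1+ cells by -0.49 in Dlk1- Sca1+ (adjusted p = 0.00426) and by -0.26 in papillary cells (adjusted p = 0.0493). It was not called in Dlk1- Sca1+ against reticular (adjusted p = 0.19) or papillary cells (0.0767), and Zim2 did not pass. Ctsh, beside Rasgrf1, was higher in Dlk1- Sca1+ than in reticular cells by 1.46 (adjusted p = 8.99e-08), as Rasgrf1 was, and Tmed3 was lower there by -0.30 (adjusted p = 0.0232).

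**Figure D4:**
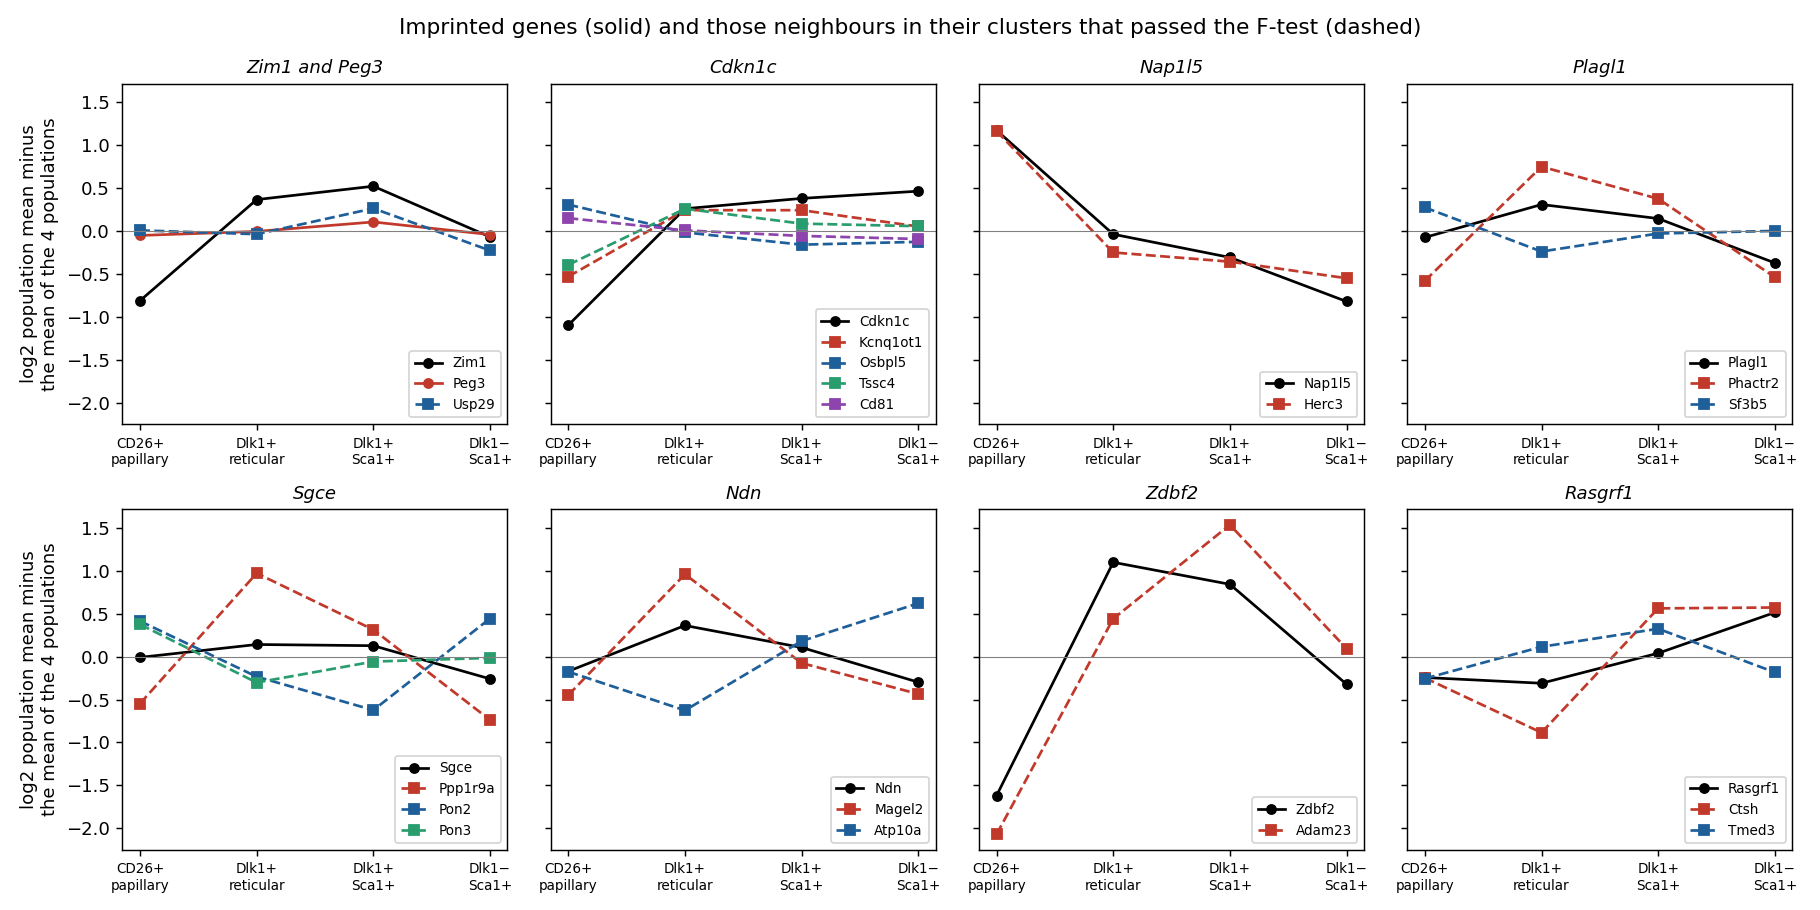
Population means of 3 arrays, minus the mean of the 4 populations (log2, vertical axis), for 9 of the 10 genes (solid) and those measured neighbours that passed the F-test (dashed), 1 panel per cluster. Herc3 follows Nap1l5 and Adam23 follows Zdbf2 in being apart in papillary cells, while Atp10a runs opposite to Ndn and Peg3 stays flat beside Zim1.

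Of 58 other imprinted genes 40 were measured, and 24 of these are neighbours already counted above. Among the 16 that lie elsewhere, 2 were higher and 6 lower in papillary against reticular cells (13.9% and 13.6% of all genes). Against Dlk1+ Sca1+ cells 1 and 6 were (14.1% and 13.9%), and against Dlk1- Sca1+ cells 1 and 4 (13.1% and 13.3%). In Dlk1+ Sca1+ against reticular cells 0 were higher and 1 lower (4.06% and 4.37%), with 2 calls from the block (12.5%). In Dlk1- Sca1+ cells 2 and 4 were called against reticular cells (9.36% and 8.8%) and 0 and 3 against Dlk1+ Sca1+ cells (3.23% and 4.13%). Counts of 0 or 1 in lists this small lie near such shares, here and in the lists below. The median difference of the 16 in papillary against reticular cells was -0.10, and -0.01 over all genes. Slc38a4, an amino acid transporter, was the member furthest from 0, with papillary minus reticular at -3.55 (adjusted p = 1.04e-09). Copg2 followed at -1.77 (adjusted p = 2.31e-06).

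Genes that establish or keep imprints were also read, 14 of 17 listed. In papillary against reticular cells 3 were higher and 0 lower: Uhrf1 by 0.75 (adjusted p = 0.00212), Dnmt1, the maintenance methyltransferase, by 0.70 (adjusted p = 9.3e-06) and Ctcf by 0.29 (adjusted p = 0.0495). In papillary against Dlk1+ Sca1+ cells 6 were higher and 1 lower, and against Dlk1- Sca1+ cells 7 and 1, Dnmt3l being the lower one in both. Elsewhere 1 was higher in Dlk1+ Sca1+ than in reticular cells (Dnmt3l, 0.55, adjusted p = 0.00174), 2 were higher and 1 lower in Dlk1- Sca1+ than in reticular cells, and 1 was higher in Dlk1- Sca1+ than in Dlk1+ Sca1+ cells. Calls in both directions from the blocked model numbered 6 in papillary against reticular, 5 in Dlk1+ Sca1+ against reticular, 7 in Dlk1- Sca1+ against reticular and 2 in Dlk1- Sca1+ against Dlk1+ Sca1+ cells. Without the block, 27.5%, 28% and 26.4% of all genes were called in the papillary comparisons, in the order given. In the others the shares were 8.43%, 18.2% and 7.36%. The list share in papillary against reticular cells, 21.4%, lay below that of all genes. In Dlk1+ Sca1+ against reticular and in Dlk1- Sca1+ against Dlk1+ Sca1+ cells it was 7.14%, near the share of all genes.

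Cdkn1c was set beside 7 other genes named as inhibitors of cyclin-dependent kinases, all measured. Its relative Cdkn1a was likewise lower in papillary than in reticular cells, by -0.67 (adjusted p = 0.000247). The opposite held for Cdkn3 (1.49, adjusted p = 3.46e-06), Cdkn2c (1.04, adjusted p = 4.64e-05) and Cdkn2b (0.79, adjusted p = 0.000487), all higher in papillary cells. Papillary cells exceeded Dlk1+ Sca1+ cells in Cdkn1b and Cdkn2d, by 0.44 (adjusted p = 0.0028) and 0.58 (adjusted p = 0.00162), and Cdkn2a was not called in any comparison. In all, 3 of 7 were higher and 1 lower in papillary against reticular cells, 5 and 1 against Dlk1+ Sca1+ cells and 4 and 1 against Dlk1- Sca1+ cells. Limma called 0 in Dlk1+ Sca1+ against reticular cells (1 with the block), where 2 had an unadjusted p under 0.05, 3 higher and 1 lower in Dlk1- Sca1+ against reticular cells, and 2 higher in Dlk1- Sca1+ against Dlk1+ Sca1+ cells. Of all genes 27.5%, 28% and 26.4% were called in the papillary comparisons and 8.43%, 18.2% and 7.36% in the others, in the order given.

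Of 13 cyclins, kinases and retinoblastoma family genes that Cdkn1c acts upon or beside, 5 were higher and 2 lower in papillary against reticular cells. Ccna2, the cyclin of S phase and G2, was higher by 1.49 (adjusted p = 7.38e-07), and Rbl1 by 0.83 (adjusted p = 0.000253). Ccnd3 was lower by -0.55 (adjusted p = 0.00382) and Rb1 by -0.49 (adjusted p = 0.0405). Against Dlk1+ Sca1+ cells 4 were higher and 1 lower, and against Dlk1- Sca1+ cells again 4 and 1. In Dlk1+ Sca1+ against reticular cells 1 was higher and 1 lower, and in Dlk1- Sca1+ cells 2 and 1 against reticular (6 calls with the block) and 2 and 1 against Dlk1+ Sca1+ cells. The shares of all genes called were 27.5%, 28% and 26.4% in the papillary comparisons and 8.43%, 18.2% and 7.36% in the others, in the order given.

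Grb10 acts on the insulin and IGF1 receptors, and 17 of 20 genes of that pathway were measured. In papillary against reticular cells 2 were higher and 9 lower, with a list median of -0.41 beside -0.01 over all genes. The ligand Igf1 was lower by -1.69 (adjusted p = 3.53e-08) and the imprinted ligand Igf2 by -0.89 (adjusted p = 1.29e-06). The receptor Insr was lower by -0.71 (adjusted p = 0.000157), and the adaptor Shc1 by -0.86 (adjusted p = 6.19e-06). Grb14, the relative of Grb10, was lower in papillary than in reticular cells as well (-0.50, adjusted p = 0.00372), but unlike Grb10 its mean was highest in Dlk1- Sca1+ cells.

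Counts for this pathway were 2 higher and 9 lower in papillary against Dlk1+ Sca1+ cells, 1 and 4 in papillary against Dlk1- Sca1+ cells (8 calls with the block), 1 and 8 in Dlk1- Sca1+ against reticular cells and 1 and 3 in Dlk1- Sca1+ against Dlk1+ Sca1+ cells (8 calls with the block). In Dlk1+ Sca1+ against reticular cells limma called 0 of 17, with or without the block, and 2 had an unadjusted p under 0.05 without it. Of all genes 8.43% were called there, and 27.5%, 28% and 26.4% in papillary against reticular, Dlk1+ Sca1+ and Dlk1- Sca1+ cells. For Dlk1- Sca1+ cells the share was 18.2% against reticular and 7.36% against Dlk1+ Sca1+ cells.

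**Figure D5:**
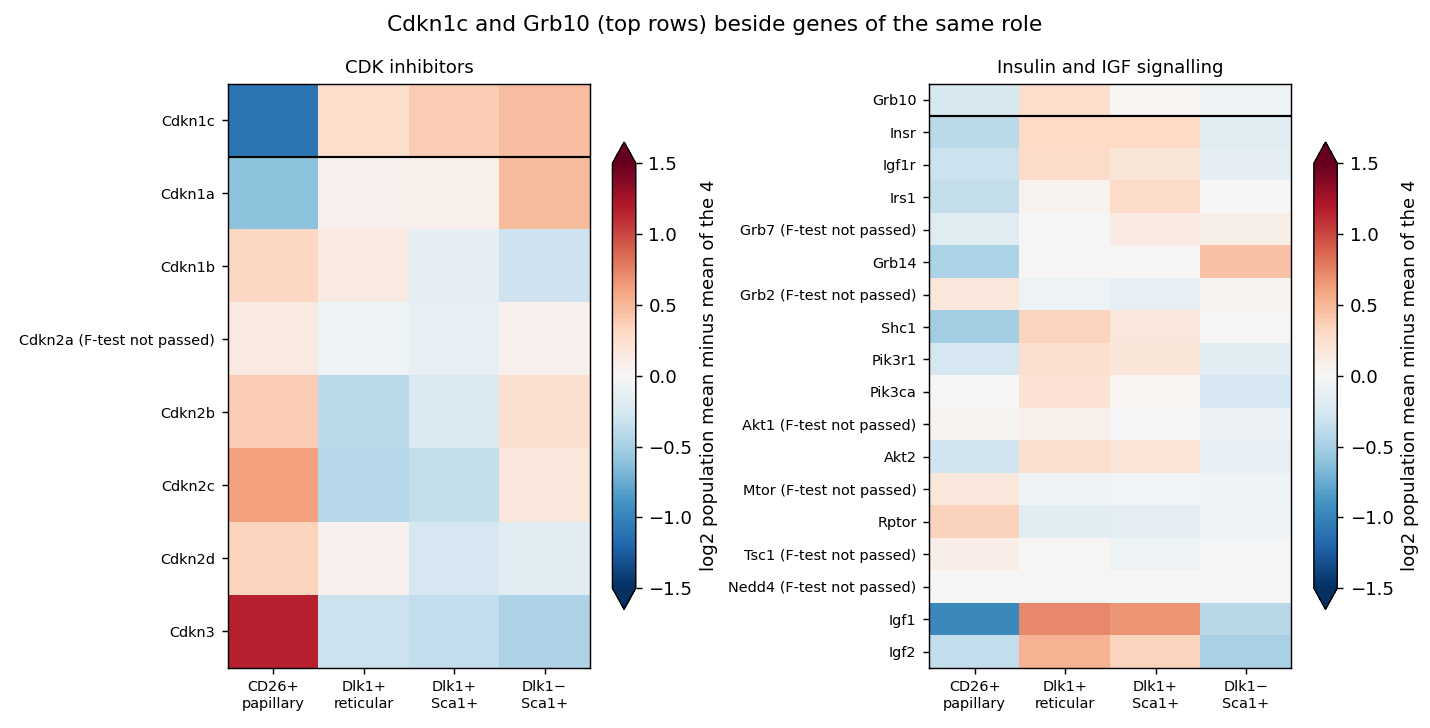
Heat maps of population means of 3 arrays minus the mean of the 4 populations (log2, colour scale ending at 1.5 in either direction) for Cdkn1c with 7 other genes named as kinase inhibitors and for Grb10 with 17 genes of insulin and IGF signalling. Genes that did not pass the F-test are marked. Cdkn1c and Cdkn1a are low in papillary cells where Cdkn3 and Cdkn2c are high, and Igf1 and Igf2 are highest in the reticular column.

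The families of the remaining genes were read in the same way. Of 2 relatives of Plagl1, Plag1 was lower in papillary than in reticular cells by -0.40 (adjusted p = 0.0135) and differed by -0.35 between papillary and Dlk1+ Sca1+ cells (adjusted p = 0.0284), and Plagl2 was not called anywhere. Of 6 measured MAGE genes, the family of Ndn, 1 was higher and 2 lower in papillary against reticular cells, 3 were lower in Dlk1- Sca1+ than in reticular cells and 1, Maged2, lower than in Dlk1+ Sca1+ cells (-0.55, adjusted p = 0.00672). Papillary cells were higher than Dlk1- Sca1+ cells in 2, Dlk1+ Sca1+ cells lower than reticular cells in 1, and papillary against Dlk1+ Sca1+ cells gave 0 calls with limma (also 0 with the block, and 2 with an unadjusted p under 0.05). Maged2 was lower in Dlk1- Sca1+ than in reticular cells by -0.74 (adjusted p = 0.000334), as Ndn was. Of all genes 27.5%, 28% and 26.4% were called in papillary against reticular, Dlk1+ Sca1+ and Dlk1- Sca1+ cells. Between the Dlk1+ populations 8.43% were, and for Dlk1- Sca1+ cells 18.2% against reticular and 7.36% against Dlk1+ Sca1+ cells.

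Of 11 measured genes of the sarcoglycan and dystrophin complex, that of Sgce, 3 were higher and 1 lower in papillary against reticular cells. Dmd was higher there by 1.27 (adjusted p = 4.78e-05) and Sntb1 by 0.98 (adjusted p = 0.00746), while Sntb2 was lower by -0.46 (adjusted p = 0.00204). In the other comparisons 4 were higher and 2 lower (papillary against Dlk1+ Sca1+), 4 and 1 (papillary against Dlk1- Sca1+), 0 and 2 (Dlk1+ Sca1+ against reticular), 1 and 2 (Dlk1- Sca1+ against reticular, 5 calls with the block) and 0 and 1 (Dlk1- Sca1+ against Dlk1+ Sca1+, 2 with the block). In the last 2, Sntb2 was lower in Dlk1- Sca1+ cells, as Sgce was, by -0.45 (adjusted p = 0.00462) and -0.50 (adjusted p = 0.00527). The shares of all genes called were 27.5% in papillary against reticular cells and 28%, 26.4%, 8.43%, 18.2% and 7.36% in the other comparisons, in the order given.

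The 5 nucleosome assembly genes beside Nap1l5, namely Nap1l1, Nap1l2, Nap1l3, Nap1l4 and Set, gave 1 call over all comparisons, Set being above Dlk1+ Sca1+ cells in papillary cells, with a difference of 0.43 (adjusted p = 0.0389). In that comparison 28% of all genes were called. With the block it gave 2 calls (33.8% of all genes), and papillary against Dlk1- Sca1+ cells 2 (32.1%). Of 7 measured exchange factors related to Rasgrf1, only Rasgrp2 was called, lower in papillary than in reticular cells by -1.09 (adjusted p = 0.00044), Dlk1+ Sca1+ cells by -0.96 (adjusted p = 0.00113) and Dlk1- Sca1+ cells by -1.06 (adjusted p = 0.000563). Rasgrf2, Sos1, Sos2, Rasgrp1, Rasgrp4 and Rapgef1 were not called in any, and the block gave 2 calls in papillary against Dlk1- Sca1+ cells. The shares of all genes called in the papillary comparisons were 27.5%, 28% and 26.4%, in the order given for Rasgrp2.

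Likeness among the 10 genes was described by Pearson's r over the 12 arrays, which share 3 animals and 4 populations. Plagl1 ran with Sgce (0.907) and Ndn (0.88), Zim1 with Zdbf2 (0.898) and with Cdkn1c (0.834). Nap1l5 ran opposite to Cdkn1c (-0.922) and Rasgrf1 opposite to Plagl1 (-0.723), and Plagl1 and Cdkn1c were nearly unrelated (0.074).

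The genes most like each of the 9 that passed the F-test were sought among 5845 genes that also passed it. Cdkn1c was most like Plat, tissue plasminogen activator (r = 0.998 over 12 arrays), and Col5a3 (0.995), and least like Chodl (-0.995). Plagl1 was most like Islr (0.988) and Fbln1 (0.977), Ndn most like Man2a1 (0.971) and Gpc4 (0.966), and Sgce most like Pdgfrl (0.956) and Colgalt1 (0.952). The genes least like these 3 were Snrpd2 (-0.979), Mif (-0.967) and Qars (-0.922).

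Zim1 was most like Tspan11 (0.984) and Rnf31 (0.978) and least like Mcm2 (-0.985), a subunit of the replication helicase. For Zdbf2 the most like were N4bp2 (0.984) and Ptpn2 (0.981) and the least like Myof (-0.982). Nap1l5 was most like Dnm1 and Nt5e (0.98 each) and least like Ccnl1 (-0.969). Grb10 had the weakest companions, Tsc22d4 (0.938) and Ripor3 (0.914), with Clcn3 at -0.932. Rasgrf1 was most like Scnn1b (0.971) and Fabp5, a fatty acid binding protein (0.967), and least like Smo (-0.949), the Hedgehog signal transducer. A high r among so many candidates describes these arrays only.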

How the data were processed

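The table the authors deposited holds log2 values of 12 arrays. Per the submitters' processing notes they come from RMA in affy. Their versions and a genome build are not given in the sources used here. Per the labels' protocols, the RNA of 4500 cells went through 21 cycles of amplification before 8 µg of cDNA was biotin-labelled, which can distort differences between transcripts. RMA also compresses the differences of dim probe sets.

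Of 45141 probe sets, 104 controls, 551 with several symbols and 15588 unnamed here were left out, and the brightest of each gene gave 17097 genes. No dim genes were removed and no further normalization was applied. The model, fitted to all 12 arrays with limma 3.58.1 under R 4.3.3, had 1 coefficient for each population, 6 contrasts, 8 residual and 4.475 prior degrees of freedom, and Benjamini-Hochberg adjustment over all genes in each contrast. The scripts were tested on simulated data. Precision is limited by 3 arrays per population.

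The labels number 3 littermates. Deviations from the population means had a mean correlation across genes of 0.266 for arrays of 1 animal (0.086 to 0.432, 17 of 18 pairs above 0.1) and of -0.132 for arrays of different animals, so the numbers were taken to pair the arrays. The animal as a block, other normalizations, a filter on dim genes, other probe set rules, limma-trend with robust estimation, only the populations compared, and each animal or array left out were the alternatives.

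The 10 genes and all companion lists were chosen with earlier results of these data known. The rule for named genes took all 10 genes with every probe set, their measured cluster neighbours, up to 4 called genes of each other list by size, all genes of lists of at most 8, and for each gene past the F-test the 2 most and the 1 least correlated genes.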

Additional observations from a re-analysis of the deposited data

How the results depend on the processing

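With 3 arrays per population, the small differences of these genes lay near the limit of what limma called. Of 253 refits of the 32 called pairs of a gene and a comparison under settings other than leave-outs, 245 stayed called in the same direction, as did 435 of 480 with an animal or an array left out. Of the 28 pairs not called, 34 of 221 other settings and 10 of 420 leave-outs gave a call. The cause was not tested. Neither centring nor repeated quantile normalization shifted the median of all genes in any comparison by more than 0.064 from its reported value.

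In papillary against Dlk1+ Sca1+ cells, the count of 5 called genes became 8 with the replicate block of the animal, with the mean of a gene's probe sets and with the probe set of largest variance, and was 4 to 7 with an animal or an array left out. Of all genes 33.8%, 29.5% and 29.7% were called under those settings in turn, and 20.1% to 28.5% over the leave-outs. In Dlk1+ Sca1+ against reticular cells, the count of 0 became 2 with the block, with the mean of probe sets and with the probe set of largest variance, and 1 with centred arrays, with repeated quantile normalization and with limma-trend plus robust estimation. The shares of all genes, in that order, were 12.5%, 9.17%, 8.19%, 8.49%, 9.33% and 9.18%, so these counts lie near them. Over the leave-outs the count was 0 to 1 (2.91% to 8.79% of all genes), 1 without the Dlk1- Sca1+ array of animal 1 (Nap1l5) or 3 (Rasgrf1). In Dlk1- Sca1+ against Dlk1+ Sca1+ cells, the count of 6 ranged from 2 to 6 over the leave-outs (3.11% to 7.64% of all genes). It was 2 without animal 1 and 3 without the Dlk1+ Sca1+ array of animal 1. Counts in the other 3 comparisons stayed within 1.5 times the reported count, at 7 to 8, 6 to 8 and 6 to 9 over the other settings. Of the genes tested 26.9% to 46.8%, 25.1% to 45.5% and 14.1% to 33.1% were called there. Leave-outs gave 6 to 7, 5 to 7 and 6 to 7, and the F-test count of 9 was 7 to 9 over all settings and leave-outs. Shares of all genes called over the leave-outs were 19% to 27.8%, 18.2% to 26.8% and 9.83% to 18.2%. The block changed no call of the 10 genes other than those given in the report. Fitting only the populations compared ended 4 calls: Sgce in papillary minus Dlk1- Sca1+ (adjusted p = 0.0717), Zim1 in Dlk1- Sca1+ minus reticular (0.0716), and Ndn (0.0844) and Rasgrf1 (0.0627) in Dlk1- Sca1+ minus Dlk1+ Sca1+.

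Sgce reversed with its probe set: papillary minus reticular was -0.15 as reported, 0.26 with the mean of its probe sets (adjusted p = 0.0352) and 0.67 with the probe set of largest variance (adjusted p = 0.000425), and papillary minus Dlk1+ Sca1+ was -0.14 as reported and 0.57 with the latter (adjusted p = 0.00136). Both probe set rules also ended its calls in Dlk1- Sca1+ minus reticular (adjusted p = 0.119 and 0.969) and minus Dlk1+ Sca1+ (0.1 and 0.716). Leaving out dim genes kept 8548 genes and 9 of the 10, without Rasgrf1.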
